A study of Mus musculus with 18 samples.

Results

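The genes of iron uptake, storage and export were followed during the differentiation of MEL (murine erythroleukemia) cells under hexamethylene bisacetamide (HMBA). These cells are an established line of virus-transformed mouse erythroid precursors. The set comprised Tfrc, Slc11a2, Ftl1, Ncoa4 and Slc40a1. Its members were all probes that the platform annotation assigns to these symbols, which gave 5 of 6868 probes and 5 of the 5974 genes named on the array. Cells on days 1, 2, 3, 4, 5 and 6 of HMBA were each set against uninduced control cells on two-colour arrays, and at day 0 both channels carried control RNA. Series A had 1 array a day from day 0 to day 6, series B had 1 on days 0, 2, 3, 4, 5 and 6, and 5 further arrays of series B (days 0, 2, 3, 5 and 6) were titled SD. On the SD arrays of days 2, 3, 5 and 6 the labels exchange the channels of induced and control RNA. Every array came from this single line, which carries out a chemically induced differentiation in culture. Neither the HMBA concentration nor the dyes are given in the labels. Nor do they tell whether separate cultures were used, so p-values cover only array-to-array spread, possibly technical.

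An erythroid precursor takes up iron for heme mainly as transferrin bound to transferrin receptor 1, the product of Tfrc. The complex is internalised, and the divalent metal transporter encoded by Slc11a2 moves the iron out of the endosome. Iron that is not used is stored in ferritin, a shell of heavy chains and of light chains such as that of Ftl1. Ncoa4 encodes the receptor that carries ferritin to autophagy and so releases its iron, and Slc40a1 encodes ferroportin, the only known cellular exporter of iron. Iron regulatory proteins bind iron-responsive elements in several of these messages when iron is low. They block translation of the ferritin, ferroportin and Alas2 messages and stabilise the Tfrc message. The arrays measured RNA ratios and no protein.

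Promoter sequence is shown for Ftl1, the member called in one fit below, and for Tfrc, the uptake member with the larger late difference. RefSeq windows (GRCm38.p6) were at hand for 3 of the 5 members, Ftl1, Tfrc and Ncoa4. The 130 bases just before the start are printed 5′ to 3′, for Ftl1 from chr7:45459887-45460016 on the minus strand and for Tfrc from chr16:32608766-32608895 on the plus strand. Capitals mark CCAAT or its complement ATTGG, the letters bound by the factor NF-Y.
Ftl1: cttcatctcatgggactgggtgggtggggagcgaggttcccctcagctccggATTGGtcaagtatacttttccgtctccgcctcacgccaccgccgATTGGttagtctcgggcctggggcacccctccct
Tfrc: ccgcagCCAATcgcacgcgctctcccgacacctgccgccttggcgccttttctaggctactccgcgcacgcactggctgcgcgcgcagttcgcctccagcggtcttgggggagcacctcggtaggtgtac
The Ftl1 stretch held the letters at positions -78 and -34 from the start, and the Tfrc stretch held them at -124. CCAAT on either strand occurred in 33.8% of 32851 mouse promoter windows over the 250 bases before the start, so the match is common. No match to the erythroid GATA letters (AGATAA and its variants with T first or G last, either strand) lay in the Ftl1 window or in either of the 2 Tfrc windows, and 26.5% of all windows held one. One of the 3 Ncoa4 windows held TGATAG at -125. These matches describe letters in the windows and nothing about binding.

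Log2 ratios were centred by subtracting the median of their array. They are likely induced over control on the arrays other than SD: the labels name the induced RNA as channel 1 there, and the globin probe Hba-ps3 lay between 3.87 and 6.38 log2 on all late arrays. On the SD arrays Hba-ps3 was -4.25, 0.94, -2.78 and -4.20 log2 on days 2, 3, 5 and 6, so the deposited SD values likely run the opposite way, with day 3 as the exception. Myb, a gene of proliferating progenitors, likewise had the same sign on day 3 on the SD array (-0.72 log2) and on the B array (-0.57 log2), so the direction of the day 3 SD array is not settled. Between 2008 and 4945 probes had a value on the 13 arrays without SD in their title, and between 2474 and 3129 on the SD arrays. The array of day 2 in series A stood apart, with a correlation across probes of 0.063 with that of day 2 in series B, against 0.735 for the pair of day 0. Across the 3 control arrays, which compare like with like, a probe's range had a median of 1.22 log2 over 1536 probes. The SD control array entered this range with its sign as deposited, and the range depends on that sign. Of the erythroid markers, which include the member Tfrc, 7 had a late difference, with a median of 1.08 log2 over the 7. Of these, 5 were above 0, as were 59.4% of all 2615 probes, and Ank1 (-0.47 log2) and Epor (-0.079 log2) were below. With 18 arrays, as fitted below, the median was 0.53 log2. Of the hepatocyte markers, Ttr was at -1.88 and Serpina1a at 0.0079 log2. The 13 arrays held too few values for a late difference of any of 7 macrophage, 6 T cell and 4 fibroblast marker probes. With 18 arrays 1 T cell probe (Cd4, 1.34 log2) and 1 fibroblast probe (Col1a1, 0.31 log2) had one, neither past the test. Cell number and RNA content per cell cannot be told apart in bulk RNA.

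All 5 members were measured, at different coverage. The Slc11a2, Ftl1 and Ncoa4 probes had a value on 13 of the 13 arrays. The Tfrc probe had one on 9 and the Slc40a1 probe on 8, below the minimum of 11, so both were read from a fit without that minimum. Late differences set days 4, 5 and 6 against day 0 in limma, with 1 spread shared by all days and with Benjamini-Hochberg adjustment over all probes tested. At an adjusted p of 0.05 this called 0 of 1211 probes (0%), none of them a member, and 28 probes (2.31%), Ftl1 and Slc11a2 among them, had an unadjusted p under 0.05. Without the minimum it again called 0 of 2615 probes (0%), and 38 (1.45%), Tfrc among them, had an unadjusted p under 0.05. Tfrc, Ftl1 and Ncoa4 had late differences above 0, as had 59.4% of all 2615 probes with one, and Slc11a2 and Slc40a1 had late differences below 0. The median late difference of all 2615 probes was 0.16 log2.

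A fit of all 18 arrays, with the SD arrays entered at the opposite sign beside a bias common to all arrays of a probe, called 16 of 1220 probes late (1.31%), 9 of them higher (0.738%). Ftl1 was the single member among them. With the day 3 SD array entered without turning its sign, 8 probes were called and no member was. This fit lets a constant bias of a probe toward one channel cancel where both orientations exist.

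**Figure D1:**
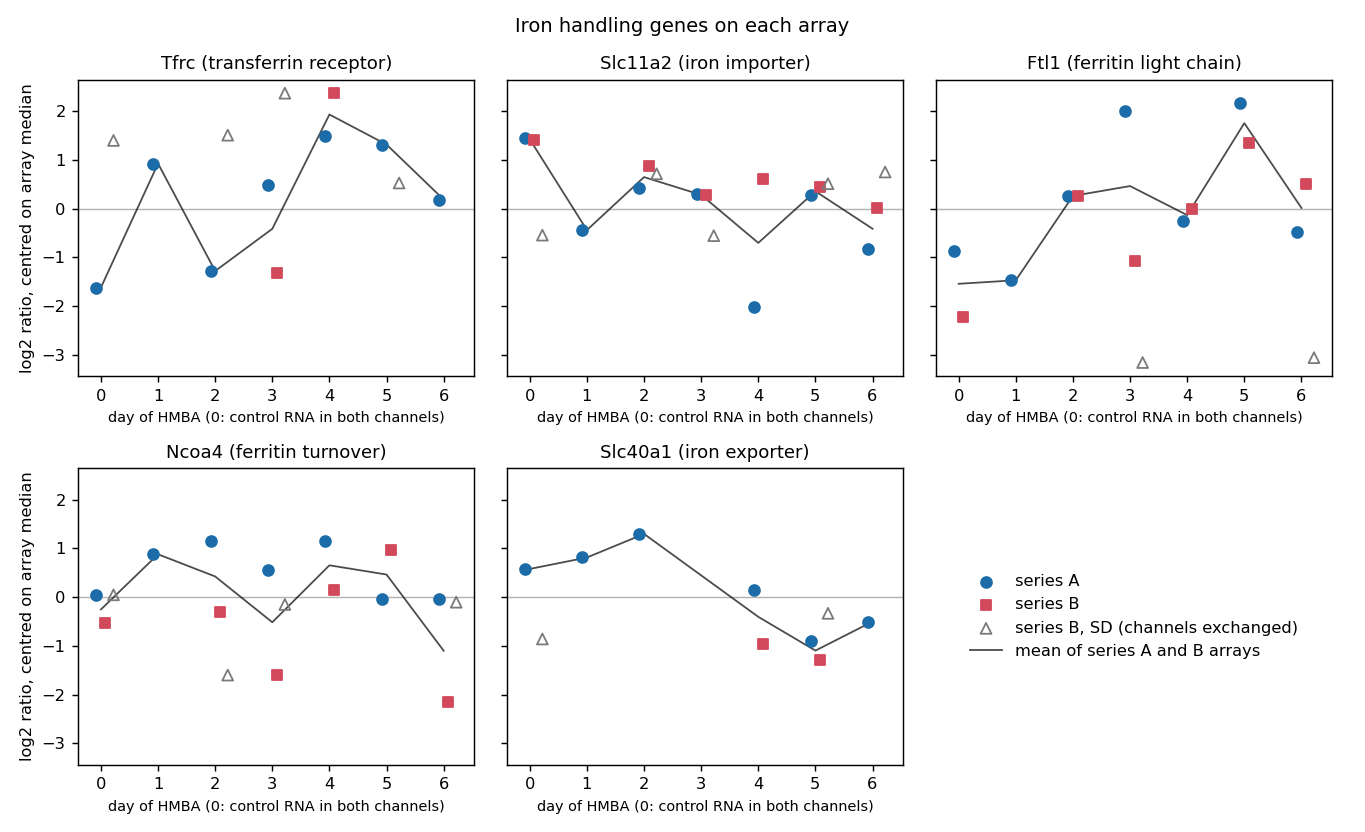
Centred log2 ratio (y axis) of the 5 genes on each array by day of HMBA (x axis), with circles for series A, squares for series B, open triangles for the SD arrays with exchanged channels and a line through the daily mean of series A and B. All 6 late Ftl1 values lay above both day 0 values, as for 5.5% of 1072 probes. All 6 late Slc11a2 values lay below both, as for 3.08% of these probes.

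For uptake, the 2 members lay in opposite directions and neither passed the test. Tfrc, the transferrin receptor, read -1.62, 0.92, -1.28, 0.48, 1.50, 1.31 and 0.18 log2 in series A on days 0, 1, 2, 3, 4, 5 and 6. Series B gave -1.32 log2 on day 3 and 2.36 log2 on day 4 and no value on its other days. All 4 late values lay above the single day 0 value, as for 9.91% of 2281 probes, and days 1 to 3 spread on both sides of 0.

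The late arrays averaged 1.34 log2 for Tfrc, against -1.62 log2 on the day 0 array. The fitted late difference, which weights the days equally, was 2.76 log2 (SE 1.17, limma adjusted p = 0.99986), or 6.78-fold. The SD control array, with its sign as deposited, gave 1.40 log2 for the same comparison of control with control. The control arrays so spanned 3.02 log2, which exceeded the late difference. With the SD sign turned, the control values would lie close together and the range would fall below the late difference. With 18 arrays the late difference was 0.49 log2 (SE 0.56, limma adjusted p = 0.894).

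On day 3, the only day with a Tfrc value in both orientations of series B, the probe read -1.32 log2 on the B array and 2.37 log2 on the SD array. As this is the SD array whose direction is not settled, the pair gives no direction for Tfrc. With its sign not turned, the 18-array late difference was 0.63 log2 (limma adjusted p = 0.892). The early difference set days 1 and 2 against day 0 with 13 arrays and against the common bias with 18. It was 1.44 log2 with 13 arrays and -0.49 log2 with 18 (limma adjusted p = 0.999 and 0.954). The direction of Tfrc on days 1 and 2 therefore turned with the arrays used.

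Slc11a2, the endosomal iron transporter, read 1.44, -0.44, 0.41, 0.29, -2.02, 0.27 and -0.83 log2 in series A on days 0, 1, 2, 3, 4, 5 and 6. Series B gave 1.40, 0.88, 0.27, 0.61, 0.44 and 0.0036 log2 on days 0, 2, 3, 4, 5 and 6. Both day 0 values were high and nearly equal, and all 11 later values lay below them. Late values without overlap below day 0 were found for 3.08% of the 1072 probes that could show it. The share for all 11 later values was not computed.

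The late arrays averaged -0.26 log2 for Slc11a2, against 1.42 log2 on the day 0 arrays. The late difference was -1.67 log2 (SE 0.75, limma adjusted p = 0.99986). The early difference was -1.32 log2 (SE 0.86, limma adjusted p = 0.999) and late minus early was -0.36 log2. Without the single array of day 1 these were -0.77 and -0.90 log2. The SD control array read -0.55 log2 as deposited, which put the range of the 3 control arrays at 1.98 log2, above the late difference. With the SD sign turned, the range would fall below the size of the late difference. With 18 arrays the late difference was -0.60 log2 (SE 0.35, limma adjusted p = 0.532), and it was -0.17 log2 without day 4 of series A and -1.04 log2 without day 4 of series B. Set against 0 and not against day 0, the late days were at -0.26 log2, so most of the difference lay in the day 0 ratios.

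For storage, Ftl1 had a late difference above 0 in both fits. It passed the test with 18 arrays while the day 3 SD array was taken as turned. The ferritin light chain probe read -0.87, -1.47, 0.25, 2.00, -0.26, 2.16 and -0.48 log2 in series A on days 0, 1, 2, 3, 4, 5 and 6. Series B gave -2.22, 0.26, -1.08, -0.011, 1.34 and 0.51 log2 on days 0, 2, 3, 4, 5 and 6. All 6 late values were above both day 0 values, which 5.5% of the 1072 probes showed in that direction, while on day 3 the 2 series lay further apart than the late difference.

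The late arrays averaged 0.54 log2 for Ftl1, against -1.54 log2 on the day 0 arrays. The late difference was 2.09 log2 (SE 0.81, limma adjusted p = 0.99986), or 4.25-fold. It exceeded the range of 1.34 log2 between the control arrays with a value, of which there were 2. Neither was the SD control array, which held no Ftl1 value, so this range is not like those of the other members. The early difference was 0.94 log2 (SE 0.93) and late minus early 1.15 log2 (SE 0.73), neither of which passed (limma adjusted p = 0.999 and 0.794), as 0 of 1060 probes passed early (0%). Without the array of day 1 they were 1.80 and 0.28 log2, and without day 0 of series B the early difference was 0.27 log2. Over the days the slope was 0.36 log2 a day (SE 0.14, limma adjusted p = 0.997), where 0 of 1221 probes were called (0%).

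With 18 arrays, Ftl1 had a late difference of 2.02 log2 (SE 0.44, limma adjusted p = 0.0280). Its slope was 0.38 log2 a day (SE 0.080, limma adjusted p = 0.00791), where 31 of 1221 probes were called (2.54%). The SD arrays read -3.16 log2 on day 3 and -3.06 log2 on day 6, far below the B arrays of the same days. The orientation effect, which is the B minus SD difference divided by 2 and cancels a constant bias of the probe, was 1.78 log2 on day 6. On day 3 the same calculation gave 1.04 log2, which measures induction only if that SD array runs opposite to the B array. The slope was called in 18 of 18 fits that left out 1 array each, with values from 0.34 to 0.42 log2 a day. With the sign of the day 3 SD array not turned, neither call remained: the late difference was 2.07 log2 (limma adjusted p = 0.151) and the slope 0.33 log2 a day (limma adjusted p = 0.113).

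The late call of Ftl1 in the 18-array fit also rested on single arrays. It was kept in 14 of 18 such fits, with late differences from 1.85 to 2.21 log2. It was lost without day 4 of series A (2.06 log2, limma adjusted p = 0.0674), day 5 of series A (1.88 log2, 0.0917), day 4 of series B (1.98 log2, 0.0631) or the SD array of day 6 (1.98 log2, 0.203). Without the day 2 array of series A it was 2.02 log2 (limma adjusted p = 0.0344), and without the SD array of day 3 it was 2.07 log2 (limma adjusted p = 0.0460). The labels do not say whether the B and SD arrays of a day share RNA, and where they do, the p-values are too small. With the SD sign turned and each B and SD pair averaged to 1 array, the difference was 2.30 log2 (limma adjusted p = 0.485).

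**Figure D2:**
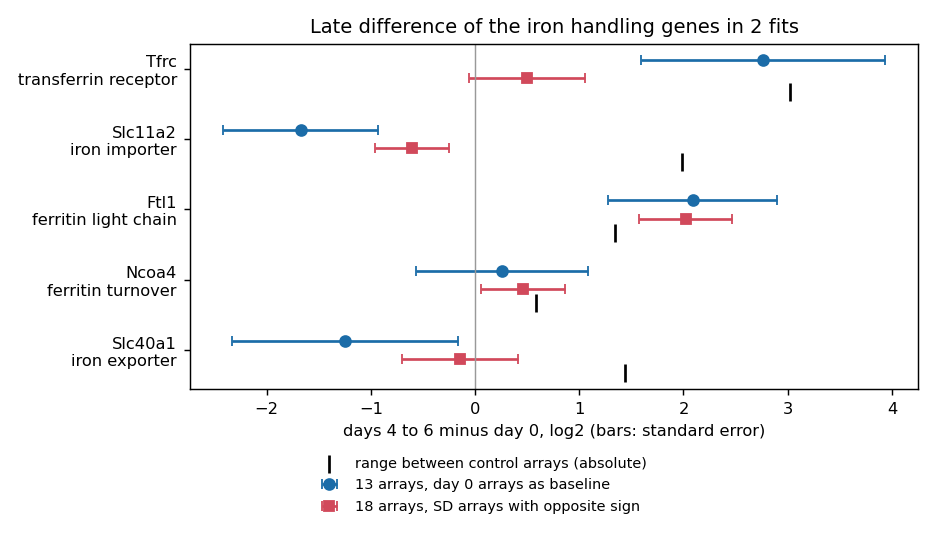
Late difference in log2 (x axis, bars for standard errors) of each gene with the 13 arrays (circles) and with 18 arrays (squares). It is days 4 to 6 minus day 0 with 13 arrays, and days 4 to 6 beyond the common bias with 18. Vertical ticks give the range between the control arrays. Ftl1 was near 2 log2 in both fits and lay beyond its control range, which lacks the SD control array. The other ranges include that array with its sign as deposited. Tfrc, Slc11a2 and Slc40a1 lay nearer to 0 with 18 arrays.

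A further probe of the ferritin light chain family was singled out after its values were seen. It is not an independent reading, as near-identical light chain copies may hybridise to both probes. Ftl2-ps, a symbol for a ferritin light chain pseudogene and not a member, averaged 1.16 log2 on the late arrays, against -0.71 log2 on the day 0 arrays. Its late difference was 1.87 log2 (SE 0.96, limma adjusted p = 0.99986) with 13 arrays and 1.40 log2 (SE 0.40, limma adjusted p = 0.0872) with 18. The orientation effect of Ftl2-ps was 0.54 on day 2, 0.049 on day 3, 0.85 on day 5 and 2.49 log2 on day 6, against 0.0033 log2 on day 0. All 4 induced days were above the control pair, day 3 only slightly and with its direction not settled. The share of all probes with such a course was not computed. Which light chain transcript either probe detected cannot be told apart here.

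Ncoa4, the ferritin receptor of autophagy, read 0.035, 0.88, 1.14, 0.57, 1.16, -0.040 and -0.041 log2 in series A on days 0, 1, 2, 3, 4, 5 and 6. Series B gave -0.54, -0.29, -1.59, 0.15, 0.97 and -2.16 log2 on days 0, 2, 3, 4, 5 and 6. Late and day 0 values overlapped, and the 2 series lay apart on days 2, 3 and 6.

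The late arrays averaged 0.0068 log2 for Ncoa4, against -0.25 log2 on the day 0 arrays. The late difference was 0.26 log2 (SE 0.82, limma adjusted p = 0.99986), within the range of 0.59 log2 between the 3 control arrays. The early difference was 0.90 log2 (SE 0.94, limma adjusted p = 0.999), or 0.54 log2 without the array of day 2 in series A. With 18 arrays the late difference was 0.46 log2 (SE 0.41, limma adjusted p = 0.776). The orientation effect was 0.65 on day 2, -0.72 on day 3 and -1.03 log2 on day 6, and so had no common sign.

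**Figure D3:**
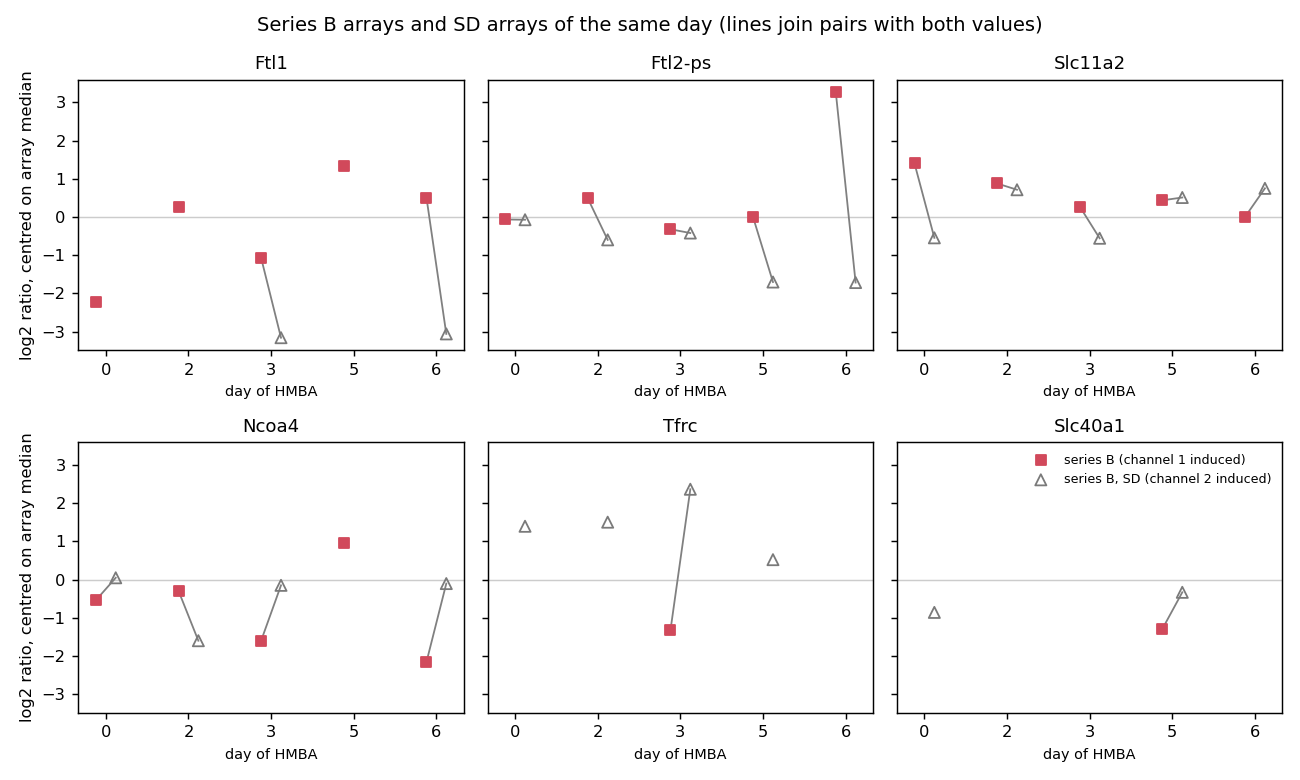
Centred log2 ratio (y axis) on the series B array (squares) and the SD array (triangles) of the same day (x axis), joined where both held a value, where on days 2 to 6 the channels of induced and control RNA are exchanged. Ftl1 and Ftl2-ps were higher on the B array on each joined day of HMBA, Ftl2-ps only slightly on day 3. Tfrc and Slc40a1 were lower there on their single joined day, which for Tfrc was day 3. The direction of the day 3 SD array is not settled, so that day gives no direction. The share of all probes with such courses was not computed.

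For export, Slc40a1, ferroportin, read 0.58, 0.81, 1.30, 0.15, -0.91 and -0.50 log2 in series A on days 0, 1, 2, 4, 5 and 6. Series B gave -0.95 log2 on day 4 and -1.29 log2 on day 5 and no value on its other days. The 5 late values lay below the single day 0 value, as for 7.32% of 2281 probes, and also below days 1 and 2.

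The late arrays averaged -0.70 log2 for Slc40a1, against 0.58 log2 on the day 0 array. The late difference was -1.25 log2 (SE 1.09, limma adjusted p = 0.99986), smaller than the range of 1.44 log2 between the 2 control arrays with a value. That range takes the SD control array as deposited. With the SD sign turned, the range would fall below the size of the late difference. Late minus early, which does not use the day 0 array, was -1.72 log2 (SE 0.84, limma adjusted p = 0.997). In that contrast 0 of 2261 probes were called (0%) and 77 had an unadjusted p under 0.05. With 18 arrays the late difference was -0.14 log2 (SE 0.55, limma adjusted p = 0.973), while late minus early was -1.67 log2 (SE 0.81, limma adjusted p = 0.987). The early side of that contrast rested on 2 arrays, of which day 2 of series A is the one that stood apart.

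Differences between members on the same array do not depend on its centring. Ftl1 minus Slc11a2 came to -2.31, -1.03, -0.16, 1.71, 1.75, 1.89 and 0.35 log2 in series A on days 0, 1, 2, 3, 4, 5 and 6. Series B gave -3.62, -0.61, -1.35, -0.62, 0.90 and 0.50 log2 on days 0, 2, 3, 4, 5 and 6. Ftl1 minus Slc11a2 thus lay above both of its day 0 values on all 11 later arrays. It is a contrast of 2 probes whose bias is not removed, and it has no test. The share of probe pairs with such a course was not computed. On the late arrays the separation had to follow, as neither gene overlapped with day 0 there. Tfrc minus Slc40a1 gave -2.20 log2 on day 0 and -2.58 log2 on day 2 of series A. It gave 0.11, 1.35, 2.22 and 0.68 log2 on days 1, 4, 5 and 6 of series A, and 3.31 log2 on day 4 of series B.

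Other genes of iron handling were read from lists by role. Of the uptake list, 6 of 10 probes had a late difference, 2 above and 4 below 0, with a median of -0.16 log2. With 18 arrays it was 4 above and 3 below 0, with a median of 0.18 log2, so the direction of the list turned. Vps35, a retromer subunit that recycles receptors, was at 0.56 log2 (SE 0.74), and Ltf, the iron-binding lactoferrin, at -0.27 log2 (SE 0.75). The 4 of 5 storage probes with a late difference were above 0 with a median of 1.47 log2, where 59.4% of all 2615 probes were above 0. The 4 included Ftl1 and Ftl2-ps, which may detect the same transcripts, and the iron chaperone Pcbp1 at 1.08 log2 (SE 0.83). Of the export list, 4 of 6 probes had a late difference and 1 was above 0, Smad4, a transducer of hepcidin control in liver, at 1.08 log2 (SE 1.04), and the list's median was -0.29 log2. With 18 arrays 3 of these 4 were above 0, with a median of 0.46 log2. None of these passed with 13 arrays. With 18 arrays Ftl1 alone passed among the 23 iron probes with a difference, 16 of which were above 0 with a median of 0.28 log2, against 25 called of all 3428 probes (0.729%) and a median of 0.10 log2.

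Of the iron sensors, 2 of 3 probes were above 0, as were 59.4% of all 2615 probes. Hif1a was at 0.91 log2 (SE 0.98) and Aco1, which encodes iron regulatory protein 1, at 0.34 log2 (SE 0.75). Epas1 was at -0.021 log2 (SE 1.08). The mitochondrial list had 3 of 5 probes above 0 and a median of 0.018 log2, or 2 of 5 and -0.13 log2 with 18 arrays. Hspa9, a chaperone of iron-sulfur cluster assembly, lay lowest at -1.79 log2 (SE 1.43). For heme synthesis, 3 of 6 probes were above 0, and Ppox lay lowest at -1.52 log2 (SE 1.27). Alas2, the first enzyme of the pathway in erythroid cells, averaged 2.78 log2 on the late arrays, against -0.69 log2 on the day 0 array, with a late difference of 3.60 log2 (SE 1.16, limma adjusted p = 0.99986) and of 2.53 log2 with 18 arrays (limma adjusted p = 0.0106).

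Grouped by the iron-responsive element, the messages that carry it near the start had 2 of 4 probes above 0, or 3 of 4 with 18 arrays. With 18 arrays Ftl1 and Alas2 were called, against 25 of all 3428 probes (0.729%). The Ftl1 call was lost when the day 3 SD array was not turned. Messages with the element in the 3′ part had 2 of 3 above 0 and none called, with a median of 0.83 log2 for 13 arrays and -0.60 log2 for 18. The direction of that group turned with the arrays used. No list of heme release genes could be read late, as none of its 6 probes had a late difference.

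**Figure D4:**
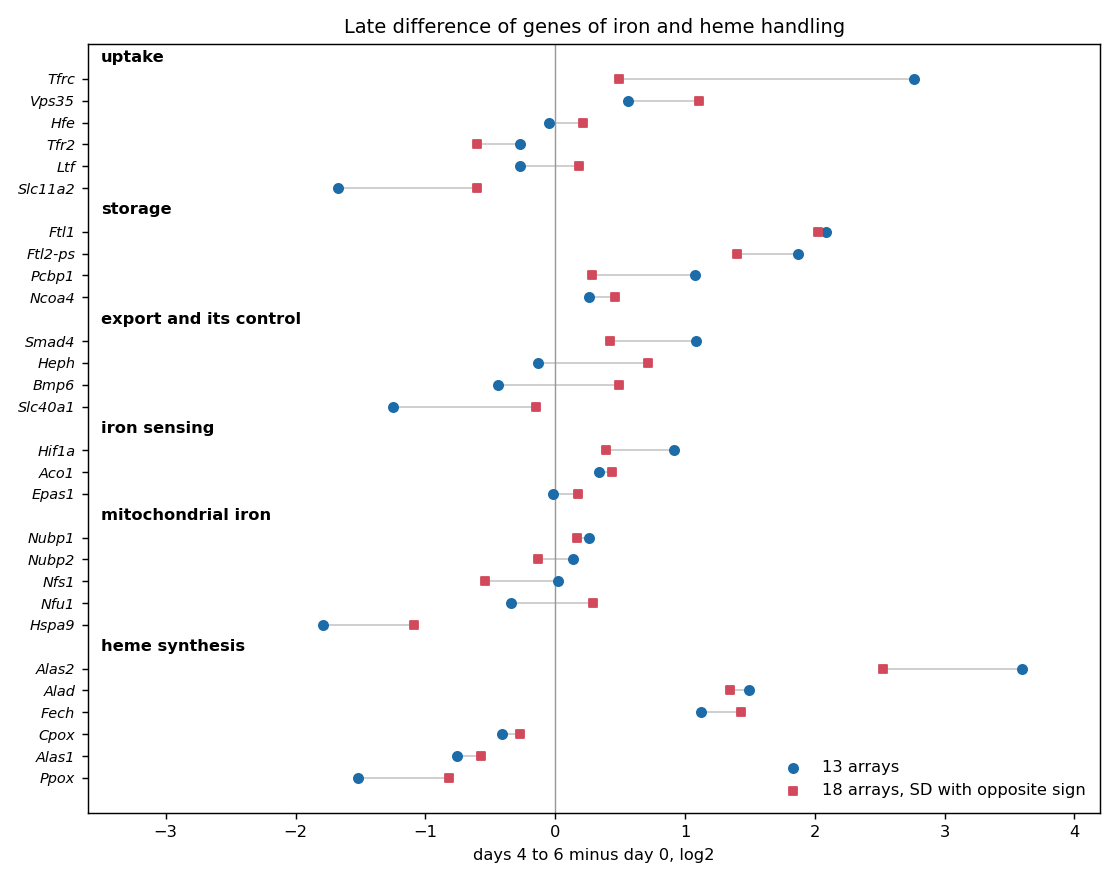
Late difference in log2 (x axis) of the measured genes of each list (rows). Circles give days 4 to 6 minus day 0 with the 13 arrays. Squares give days 4 to 6 beyond the common bias with 18 arrays. All 4 storage genes drawn were above 0 in both fits, as were 59.4% of all 2615 probes with 13 arrays and 1951 of 3428 with 18. Among these storage genes, Ftl1 and Ftl2-ps may detect the same light chain transcripts. The uptake and export lists lay on both sides of 0.

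The probes with the most similar course to each well covered member were found by Pearson correlation of centred ratios over at least 11 shared arrays, among 1080 probes. For Ftl1 they were Cks1b (r = 0.818), Abcb9 (0.805) and Nedd8 (0.768). For Slc11a2 they were Itga4 (0.909), Tiam1 (0.821) and Rnf14 (0.769), and for Ncoa4 they were Fbxl6 (0.877), Nedd1 (0.855) and Cst3 (0.841). Each value is the highest of many over few arrays that may share a control RNA, and is a description.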

How the data were processed

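The authors deposited log2 ratios in 1 table, a scale recognised from the values. For ratios under 0.5, values on 13 arrays matched the log2 of a ratio rounded to 3 decimals, within 0.01 of its last digit, and values on SD arrays matched minus such a log2. The labels do not give the dyes, scanner or normalization, and no intensities were used, so the signal behind a ratio is unknown and the number of arrays limits the precision. Each array was centred on its median. Probes were named from the platform annotation (6108 of 6868 with 1 symbol), and all 5 member symbols matched the gene table. limma 3.58.1 in R 4.3.3 fitted day means and a linear trend over the day number, and a probe was tested with values on at least 11 of 13 arrays and on 1 day 0 array. Steps were tested on simulated data. Alternatives were centring, filter, quantile scaling, equal spread of arrays, testing against 0, the SD arrays and each array left out. The members, lists, naming rule and the sign given to SD arrays were chosen with earlier results of these data known. Named were all members, up to 4 probes a list by absolute late difference and 3 similar probes a member. Ftl2-ps, Hba-ps3 and the light chain comparison between orientations were singled out after their values were seen.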

Additional observations from a re-analysis of the deposited data

Results flagged for a closer look

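Ncoa4 drew attention through the SD arrays, which the 13-array fit does not use. Its orientation effect, the B minus SD difference divided by 2, was 0.65 on day 2, -0.72 on day 3 and -1.03 log2 on day 6. Each was larger in size than that of the control pair of day 0 (-0.29 log2). The share of all probes with such pairs was not computed. Among the 6 late arrays, the Ncoa4 value of -2.16 log2 on day 6 of series B lay far below the rest. By its definition, the Dixon criterion used marks about 1 in 20 such groups by chance. It was applied to the lowest and highest late values of all 5 members. The direction of the day 3 SD array is not settled.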

How the results depend on the processing

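By limma, 0 probes were called early or late minus early with 13 arrays and under every alternative run, where 37 and 67 probes had an unadjusted p under 0.05 with 13 arrays. Late, 1 probe was called with the series letter as a replicate block, 16 with 18 arrays, 13 with 18 arrays and the block, 8 with 18 arrays and the day 3 SD array not turned, and 309 when the late mean was tested against 0, which leaves the day 0 arrays out. For the slope the counts were 1 without centring, 1 with the block and 31 with 18 arrays, with or without the block, and 13 with the day 3 SD array not turned. Leaving out single arrays gave 0 to 1 late calls with 13 arrays (1 without either array of day 3) and 5 to 24 with 18, and 15 to 42 slope calls with 18. The late difference of each member kept its direction under centring, filter, quantile, equal spread and both ways of averaging the SD arrays, and with 18 arrays. Reversed were Tfrc early with 18 arrays (-0.49 log2), with the block added (-0.042), with day 3 SD not turned (-0.39) and against 0 (-0.18), and the Tfrc slope with 18 arrays (-0.041, range -0.084 to 0.027 without single arrays, and 0.24 to 0.58 with 13 arrays). Against 0, Slc11a2 early was 0.10 and Ftl1 early -0.61 log2. Slc11a2 late minus early was 0.080 log2 without day 4-A (range -0.90 to 0.080). Ncoa4 late was -0.094 without day 6-A and -0.028 without day 0-B (range -0.094 to 0.61, and 0.29 to 0.63 with 18 arrays). The Ncoa4 slope was 0.018 with 18 arrays, 0.019 with day 3 SD not turned (range -0.017 to 0.079) and 0.050 without day 6-B (range -0.16 to 0.050). Slc40a1 late with 18 arrays was 0.078 without day 0-A and 0.039 without day 4-B (range -0.53 to 0.078, and -1.43 to -1.06 with 13 arrays). Without day 1-A, Tfrc early was 0.34 and late minus early 2.42 log2. Causes were not tested. Deviations of the same letter correlated above 0.1 in 12 of 15 pairs of days (-0.15 to 0.55, median 0.28). As this was not so in all 15, the letters were not taken as pairs, which does not show that the series share nothing. Most pairs of days did deviate together, and the fits without the block do not account for it. The median standard error late with 13 arrays was 0.76 log2 with the block, against 0.82 log2 without it. With the block, Ftl1 late with 18 arrays was 1.90 log2 (limma adjusted p = 0.0198). The leave-one-array fits of 18 arrays, the block in that fit and the sign of day 3 SD were chosen after seeing the data. A median standard error of 0.82 log2 late limited what could be called.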
